A study of Mus musculus with 6 samples.

Results

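The synaptonemal complex and meiotic axis genes described here are Sycp1, Sycp2, Sycp3, Syce1, Syce2, Tex12, Hormad1, Hormad2 and Meioc. They were chosen by name, and all 9 were found among the 26567 mouse genes to which deposited transcripts could be assigned. Meioc was found under its older symbol Gm1564. The cells were cap mesenchyme, the progenitors from which nephrons form, sorted by flow cytometry from kidneys of C57BL/6 mouse embryos at day 18.5. The 3 control libraries, called heterozygous, are labelled Dnmt1 +/- and the 3 knockout libraries Dnmt1 -/-. In both groups Cre, expressed from the progenitor gene Six2, recombined conditional alleles of Dnmt1, whose product restores DNA methylation after replication. The controls therefore also carry Cre and a deleted allele, and libraries with both alleles intact were not analysed here. Whether libraries came from different embryos is not labelled. Y-linked transcripts read as both male and female within each group (below), so the libraries of a group did not all come from the same embryo. The p-values therefore measure only the spread between these samples, which may be technical in part.

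The synaptonemal complex is the protein ladder that holds paired chromosomes together in the prophase of meiosis. Its lateral elements form along the chromosome axes and contain SYCP2 and SYCP3, its transverse filaments are made of SYCP1, and its central element contains SYCE1, SYCE2 and TEX12. HORMAD1 and HORMAD2 coat the axes before pairing and are removed by TRIP13 as the complex assembles, while MEIOC is a cytoplasmic partner of YTHDC2 that germ cells need to proceed through prophase. Most of these genes are known for expression in germ cells, and the promoters of many germ cell genes carry DNA methylation in somatic tissue.

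Promoter sequence is shown for 4 genes that rose in the knockout and 2 that did not pass the test, because CpG dinucleotides are the sites at which Dnmt1 maintains methylation. Each sequence is the 150 bases before a RefSeq transcription start (assembly GRCm38.p6), 5′ to 3′ on the strand of the gene, with CpG dinucleotides in capitals.
Syce1, chr7:140787855-140788004, minus strand: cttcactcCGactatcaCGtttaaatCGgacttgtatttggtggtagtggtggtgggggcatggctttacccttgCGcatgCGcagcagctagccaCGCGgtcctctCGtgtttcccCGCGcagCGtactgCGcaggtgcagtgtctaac
Tex12, chr9:50561269-50561418, minus strand: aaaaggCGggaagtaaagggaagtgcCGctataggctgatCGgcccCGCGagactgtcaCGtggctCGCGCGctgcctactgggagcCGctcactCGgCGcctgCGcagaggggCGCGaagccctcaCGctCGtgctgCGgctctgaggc
Hormad1, chr3:95559527-95559676, plus strand: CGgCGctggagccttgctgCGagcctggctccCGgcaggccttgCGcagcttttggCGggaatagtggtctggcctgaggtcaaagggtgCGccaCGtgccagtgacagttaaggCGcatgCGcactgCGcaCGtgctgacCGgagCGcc
Sycp2, chr2:178407659-178407808, minus strand: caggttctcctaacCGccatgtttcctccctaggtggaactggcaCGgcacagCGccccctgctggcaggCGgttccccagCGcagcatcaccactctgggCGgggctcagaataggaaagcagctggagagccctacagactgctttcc
Sycp3, chr10:88459437-88459586, plus strand: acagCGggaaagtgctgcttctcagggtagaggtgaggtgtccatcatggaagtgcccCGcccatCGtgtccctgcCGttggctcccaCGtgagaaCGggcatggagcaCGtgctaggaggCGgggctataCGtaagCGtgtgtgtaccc
Syce2, chr8:84872108-84872257, plus strand: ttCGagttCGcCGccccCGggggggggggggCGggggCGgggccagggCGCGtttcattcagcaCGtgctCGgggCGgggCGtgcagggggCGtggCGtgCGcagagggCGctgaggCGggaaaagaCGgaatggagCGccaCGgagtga
These stretches held 12 CpG in Syce1, 18 in Tex12, 14 in Hormad1, 6 in Sycp2, 10 in Sycp3 and 20 in Syce2. Of stretches not shown, Sycp1 held 14 CpG, Hormad2 4, Meioc 17 and another RefSeq start of Syce2 7. Methylation itself was not measured in the files used here.

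Library totals of estimated counts ran from 46741667 to 61585484, of which 92.4% to 92.82% fell on transcripts assigned to a gene. Dnmt1, the deleted gene, was at 40.0, 52.4 and 51.7 CPM (counts scaled to the normalised library size) in heterozygous replicates 1 to 3 and at 20.9, 18.6 and 14.9 CPM in knockout replicates 1 to 3 (log2 fold change -1.41 ± 0.15, SE; edgeR with Benjamini-Hochberg adjustment, adjusted p = 0.000264). Markers of nephron progenitors summed to 1850 to 1950 CPM over 12 genes in the heterozygous libraries and to 1320 to 1600 CPM in knockouts. Sums over 10 endothelium markers were 35.1 to 41.9 CPM against 220, 90.8 and 49.1 CPM in knockout replicates 1 to 3, with 1 of the 10 called higher. Sums over 9 ureteric bud markers (31.9 to 65.2 CPM against 219, 113 and 52.9 CPM) and over 9 stroma markers (176 to 236 CPM against 551, 279 and 236 CPM) followed the same order, with 1 of 9 called higher in each. The part of these cells in the results below was not tested. By Y-linked transcripts, heterozygous replicate 2 and knockout replicates 1 and 3 were female and the others male. Over all 16989 genes tested, the knockout had 836 at higher and 327 at lower levels at an adjusted p of 0.05. Scaling to library totals alone gave 731 and 1883 and moved the median log2 fold change of all genes from -0.00 to -0.166.

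Of the 9 genes, 6 were higher in the knockout (Sycp1, Syce1, Tex12, Sycp2, Hormad1 and Hormad2), none was lower, and 3 did not pass the test (Sycp3, Syce2 and Meioc). Over all genes tested, 4.92% were called higher and 1.92% lower, or 6.85% in either direction. At an unadjusted p under 0.05, edgeR had 8 of the 9 higher and 0 lower, and DESeq2 and limma voom each called 7 higher and 0 lower after adjustment, Meioc being the addition. Scaling to library totals also gave 6 higher and 0 lower. With limma on log2(TPM + 1) values, 3 were called higher (Syce1, Tex12 and Hormad1).

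The median log2 fold change over the 9 was 3.47, or 3.03 with Sycp1 placed at the bound that its 0 counts allow, against -0.00 over all genes tested. These figures are a description, because the filter on low counts asked for about 0.196 CPM in 3 libraries. The 6 called genes reached that level in all 3 knockout libraries and in at most 2 heterozygous ones, so they entered the test through the group in which they were high. Sycp3, Syce2 and Meioc reached it in all heterozygous libraries. Each knockout library lay above each heterozygous library for 8 of the 9 genes, Sycp3 being the exception, and the same held for 14.8% of all genes tested. In bulk RNA, more cells with a transcript and more transcript per cell cannot be told apart.

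**Figure D1:**
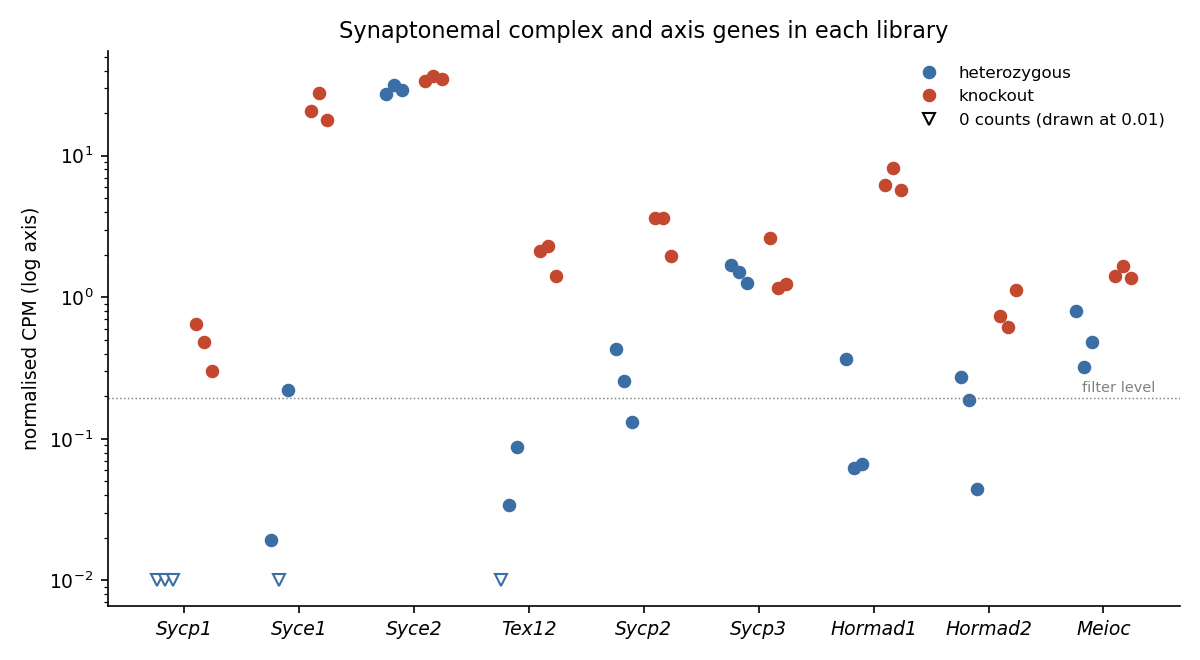
Normalised CPM (log axis) of each of the 9 genes, with 1 point for each heterozygous (blue) and knockout (red) library, open triangles for libraries at 0 counts, and the filter level of 0.196 CPM as a dotted line. The groups are apart for 8 genes and overlap for Sycp3, and Syce2 lies above 27 CPM in all 6 libraries.

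The transverse filament gene Sycp1 (chr3:102622422-102740023, minus strand; gene positions here and below are in build NCBIM37) had 0 counts in the heterozygous libraries, which allows at most 0.051 to 0.0662 CPM, the level of 3 counts. It had 30.7, 25.2 and 15.4 counts in knockout replicates 1 to 3, or 0.651, 0.485 and 0.302 CPM (mean 0.480 ± 0.174, SD, n = 3). Sycp1 thus appeared in each knockout library but stayed scarce. Against 3 counts in each heterozygous library it was at least 8.19-fold higher (edgeR with Benjamini-Hochberg adjustment, adjusted p = 0.00391, and 0.0621 with limma on unfiltered log2(TPM + 1) values).

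The central element genes ranged from near absence to abundance in the controls. Syce1 (chr7:147963128-147973753, minus strand), which links the central element to the transverse filaments, had 1, 0 and 10 counts in heterozygous replicates 1 to 3 and 977, 1442 and 904 in knockout replicates 1 to 3. In CPM these were 0.0194, 0 and 0.221 against 20.7, 27.8 and 17.8. Syce1 was thus close to 0 in the controls and plainly present in each knockout library. Its level was 298-fold higher, a log2 fold change of 8.22 ± 0.69 (SE) (edgeR with Benjamini-Hochberg adjustment, adjusted p = 0.00101). The size of the fold rests on those few control counts: it was 188-fold without heterozygous replicate 2 and 1920-fold without heterozygous replicate 3, and the gene was called under all 19 alternatives.

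Tex12 (chr9:50365253-50369373, minus strand) encodes a small coiled-coil protein that assembles with SYCE2 into the fibres of the central element. It had 0, 2 and 4 counts in controls and 101, 120 and 72 in the knockout libraries, or 0, 0.034 and 0.0883 CPM against 2.14, 2.31 and 1.41 CPM. The groups were far apart, with knockout replicate 3 the lowest of its group. The difference of 47.2-fold, or 5.56 ± 0.65 on the log2 scale (SE), passed (edgeR with Benjamini-Hochberg adjustment, adjusted p = 0.000471), and 6.59 without heterozygous replicate 3.

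Syce2 (chr8:87396010-87412120, plus strand), the partner of TEX12, was already abundant in the controls. It was at 27.2, 31.6 and 29.0 CPM in the heterozygous libraries and at 33.8, 36.6 and 34.7 CPM in knockouts. The groups did not overlap, yet the difference was small, at 0.26 ± 0.10 (SE) on the log2 scale, and it did not pass (edgeR with Benjamini-Hochberg adjustment, adjusted p = 0.15, and 0.0896 to 0.509 over 19 alternatives). Gcdh, a mitochondrial dehydrogenase gene, overlaps Syce2 on the opposite strand and was at 35.6 ± 2.88 CPM in controls and 33.8 ± 6.75 CPM in knockouts (SD, n = 3). The strand setting of the counting is not given in the sources used here. Reads of overlapping genes can then not be told apart with certainty.

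Of the axis genes, Sycp2 rose and Sycp3 did not pass. Sycp2 (chr2:178079998-178142390, minus strand), whose product binds SYCP3 in the lateral element, was at 0.428, 0.255 and 0.132 CPM in controls and 3.63, 3.63 and 1.95 CPM in knockouts. The lowest knockout library was several times the highest control. Sycp2 rose 11.1-fold, or 3.47 ± 0.45 on the log2 scale (SE) (edgeR with Benjamini-Hochberg adjustment, adjusted p = 0.000912). It was not called with limma on unfiltered log2(TPM + 1) values (limma with Benjamini-Hochberg adjustment, adjusted p = 0.0821).

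Sycp3 (chr10:87922314-87935981, plus strand), the main structural protein of the lateral element, was at 1.68, 1.52 and 1.26 CPM in controls and 2.64, 1.16 and 1.25 CPM in knockouts. The groups overlapped: knockout replicate 1 was the highest of the 6 libraries and knockout replicate 2 the lowest. The log2 fold change of 0.16 ± 0.37 (SE) did not pass (edgeR with Benjamini-Hochberg adjustment, adjusted p = 0.828) and was -0.31 without knockout replicate 1, the library with the highest sums of endothelium, ureteric bud and stroma markers. Chpt1, a phospholipid synthesis gene, overlaps Sycp3 on the opposite strand and was far more abundant, at 55.1 ± 12.2 CPM in controls and 36.6 ± 5.21 CPM in knockouts (SD, n = 3; log2 fold change -0.59 ± 0.17, SE; edgeR with Benjamini-Hochberg adjustment, adjusted p = 0.0733). Chpt1 was called lower by DESeq2 (adjusted p = 0.00681) and with library totals in edgeR (adjusted p = 0.0346).

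Both HORMA-domain genes rose, and Hormad1 by more. Hormad1 (chr3:95363599-95391593, plus strand), which promotes break formation and pairing along unsynapsed axes, was at 0.369, 0.0618 and 0.0662 CPM in controls and 6.25, 8.2 and 5.74 CPM in knockouts. All knockout libraries lay more than 10 times above the highest control. Hormad1 rose 39.6-fold, or 5.31 ± 0.58 on the log2 scale (SE) (edgeR with Benjamini-Hochberg adjustment, adjusted p = 0.000734), and 96.6-fold without heterozygous replicate 1.

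Hormad2 (chr11:4245817-4341108, minus strand), which acts in the surveillance of unsynapsed chromosomes, was at 0.272, 0.187 and 0.0441 CPM in controls and 0.742, 0.617 and 1.12 CPM in knockouts. The groups did not overlap, and knockout replicate 3 was the highest in CPM, though knockout replicate 1 was in TPM (1.62). The log2 fold change was 2.26 ± 0.58 (SE), or 4.8-fold, and passed narrowly (edgeR with Benjamini-Hochberg adjustment, adjusted p = 0.0456). It no longer passed without heterozygous replicate 2 (adjusted p = 0.131), heterozygous replicate 3 (0.103), knockout replicate 1 (0.0721), knockout replicate 2 (0.109) or knockout replicate 3 (0.125), and it held in 6 of 16 alternatives. Hormad1 and Hormad2 were not tested against each other.

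Meioc (chr11:102525030-102543551, plus strand), the only one of the 9 whose product acts on RNA and not on chromosomes, was at 0.797, 0.323 and 0.485 CPM in controls and 1.42, 1.66 and 1.36 CPM in knockouts. The groups did not overlap, and the controls were not silent. The log2 fold change of 1.47 ± 0.39 (SE), or 2.76-fold, narrowly did not pass (edgeR with Benjamini-Hochberg adjustment, adjusted p = 0.0522), and the gene was called in 6 of 17 alternatives (adjusted p from 0.0259 to 0.177). Its partner Ythdc2, an RNA helicase, differed by -0.78 on the log2 scale and did not pass (edgeR with Benjamini-Hochberg adjustment, adjusted p = 0.0724), but was called lower by DESeq2 (adjusted p = 0.0216) and with library totals (0.027).

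Levels were compared between genes in TPM, the relative abundance of transcripts scaled for their length. In the knockout libraries Syce2 was highest at 53.6 ± 0.76 TPM (SD, n = 3), followed by Syce1 at 17.7 ± 3.64, Hormad1 at 5.54 ± 0.902 and Tex12 at 4.51 ± 1.1. Sycp3 (1.85 ± 0.967 TPM), Hormad2 (1.21 ± 0.392), Sycp2 (0.772 ± 0.386), Meioc (0.411 ± 0.0662) and Sycp1 (0.153 ± 0.0607) were lower. Neighbours in that order overlapped between Hormad1 and Tex12 and along the run from Sycp3 through Hormad2 and Sycp2 to Meioc, and were separate elsewhere. The mean knockout level of Syce2 was at the 88.3 percentile of the genes tested, Syce1 at 72.3, Hormad1 at 49.8, Tex12 at 45.6, Sycp2 at 18.8 and Sycp1 at 3.13.

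The order in the heterozygous libraries was different. Syce2 stood at 47.2 ± 1.78 TPM and Sycp3 at 1.85 ± 0.339 TPM (SD, n = 3), both separate from the rest. From Hormad2 (0.473 ± 0.389 TPM) down, neighbours in the order overlapped, and Syce1 (0.0685 ± 0.103 TPM) was next to last, above Sycp1 at 0. Summed TPM of the 9 genes was 49.1, 52.1 and 49.2 in heterozygous replicates 1 to 3 and 88.4, 90.3 and 78.5 in knockout replicates 1 to 3. Without Syce2 the sums were 3.53, 2.98 and 2.13 TPM against 34.0, 36.8 and 25.6 TPM. Syce2 thus made up 92.8% to 95.7% of the sum in the controls and 59.3% to 67.4% in the knockout.

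**Figure D2:**
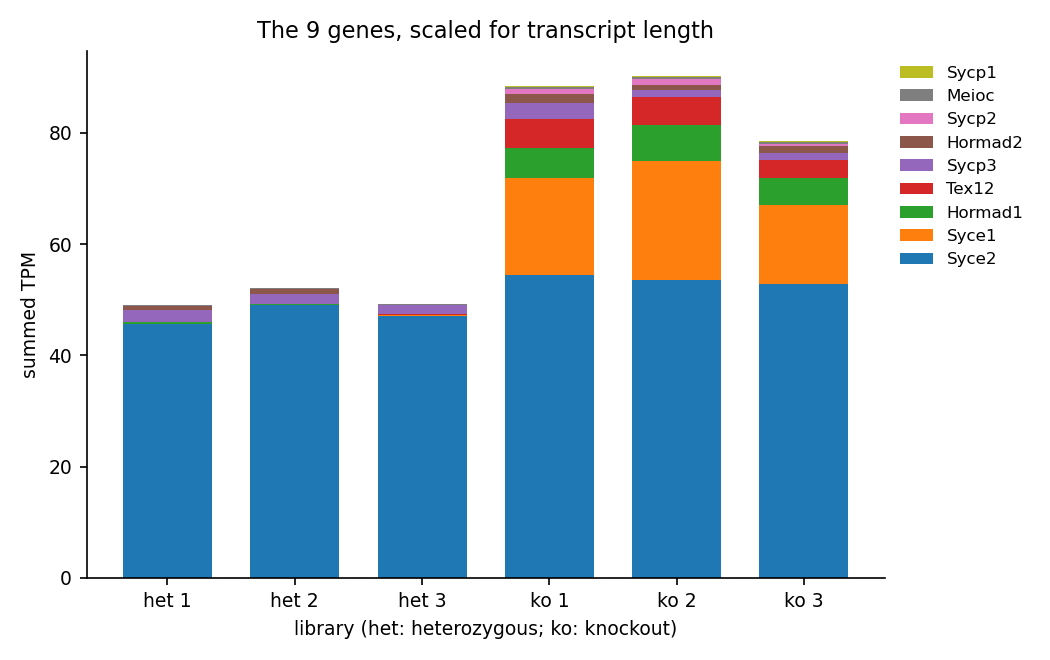
Stacked TPM of the 9 genes (colours) in each of the 6 libraries, on an axis from 0. The Syce2 segment is of similar height in all libraries, while Syce1, Hormad1 and Tex12 form visible segments in the 3 knockout libraries only.

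The partners of the complex were not at equal levels in the knockout. Syce1 exceeded Sycp1, whose product it binds, by 80.4, 145 and 148 times in TPM in knockout replicates 1 to 3. Syce2 exceeded Tex12, with which it forms fibres, by 10.5, 10.5 and 16.4 times. Syce1 exceeded Tex12 by 3.37, 4.19 and 4.38 times, and Hormad1 exceeded Hormad2 by 3.34, 7.72 and 4.03 times. These gene levels sum all annotated transcripts, including those of Syce2 and Hormad2 annotated as other than protein coding. In TPM, knockout replicate 1 was the highest of its group for 5 of the 9 genes (Sycp1, Sycp3, Syce2, Tex12 and Hormad2), and knockout replicate 2 for 3 (Sycp2, Syce1 and Hormad1). Knockout replicate 3 was the lowest for 6 genes both in TPM and in CPM.

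The estimates per annotated transcript show which forms carried these values. Syce1, Tex12 and Sycp1 each had 1 counted transcript, of 1462, 617 and 3437 bases. For Sycp2 the coding transcript Sycp2-001 (5717 bases) held 94.7% of the knockout counts, and for Meioc the coding Meioc-001 held 97.1%. For Hormad1 the leading transcript differed between the groups. Hormad1-001 was at 0.247, 0.0531 and 0.057 TPM in the heterozygous libraries, with 78.8% of their few counts, and at 0 in the knockout libraries. Hormad1-003 was at 3.63, 4.46 and 3.23 TPM in knockouts, with 66.0% of counts, and was also counted in heterozygous replicate 1 at 0.104 TPM. Hormad1-002 was at 1.53, 2.05 and 1.42 TPM, with 32.2%. With 20.2 counts behind Hormad1-001 over the 3 heterozygous libraries, its share is imprecise, and no test was run on transcripts.

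Transcripts of Sycp3 differed in the direction of their means. The coding Sycp3-001 was at 0.470, 0.0931 and 0 TPM in controls and 2.27, 0.352 and 0.236 TPM in knockouts, so that the groups overlapped and knockout replicate 1 stood out. Sycp3-003, a transcript annotated with a retained intron, was at 1.08, 0.975 and 0.998 TPM against 0.561, 0.631 and 0.824 TPM. Sycp3-002, annotated as a target of nonsense-mediated decay, was at 0.626, 0.794 and 0.501 TPM against 0.132, 0.238 and 0.304 TPM. Both of these forms were lower in each knockout library, and the coding form held 10.5% of the heterozygous and 50.3% of the knockout counts of the gene. That knockout share rests on replicate 1 (76.9%) and was 23.6% without it, close to the 22.7% of heterozygous replicate 1, while the heterozygous share was 3.35% without that library. The overlapping Chpt1 was also at a lower mean in the knockout, and its part in these values was not tested.

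For Syce2, a coding transcript of 929 bases held 44.5% of heterozygous and 45.9% of knockout counts, and Syce2-002, annotated for nonsense-mediated decay, 32.2% and 35.2%. In TPM, which scales for length, Syce2-002 had the highest mean, at 20.6 in controls and 24.8 in knockouts. The coding transcript of 929 bases was at 19.3 and 21.7 TPM, so the gene level of Syce2 is in large part not from coding forms. The makeup of Syce2 was thus similar in both groups. For Hormad2, the coding Hormad2-001 held 20.1% of heterozygous and 55.7% of knockout counts, but the former is 5.4 counts, all in heterozygous replicate 1, and is 0% without it. In that library the share was 38.6%, above the 32.3% of knockout replicate 1. In mean knockout TPM, Hormad2-001 (0.262) was under the short Hormad2-003 (583 bases, 0.497) and Hormad2-004 (372 bases, 0.297), which rest on few counts. By the same estimates, the coding Hormad2-202 was counted only in the knockout libraries, at 0.107, 0.103 and 0.067 TPM.

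**Figure D3:**
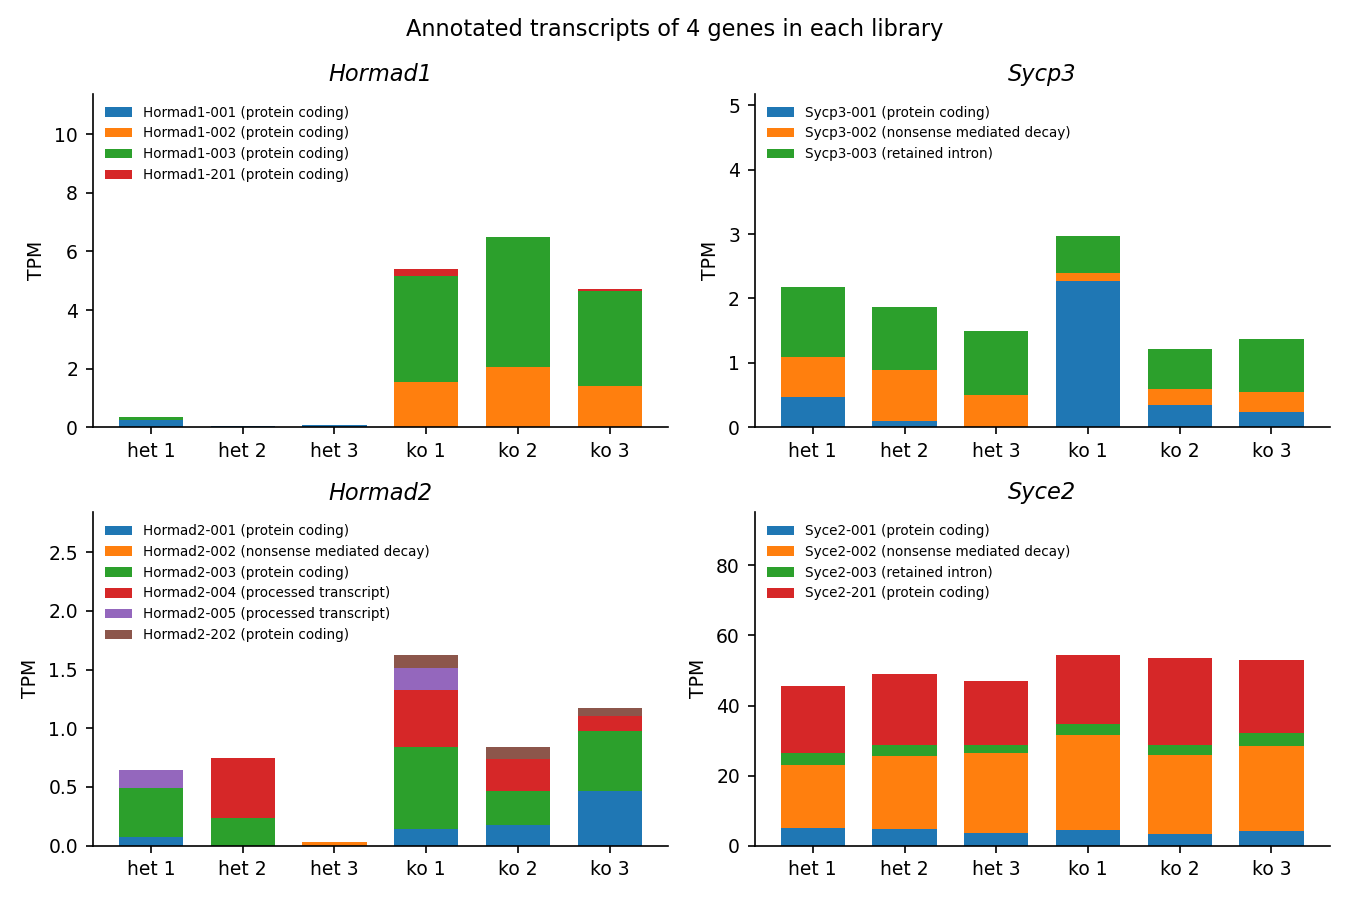
Stacked TPM of the annotated transcripts (colours) of Hormad1, Sycp3, Hormad2 and Syce2 in each library, each panel on its own axis from 0. Knockout replicate 1 has the tallest Sycp3-001 segment at 2.27 TPM, and the segments of Syce2 are alike in all libraries.

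Other copies of the coding transcript sequences in the genome were counted with words of 31 bases. For Hormad1, 54.84% of 1550 words also occurred elsewhere, 746 of them in a window at chr6:12805001-12810000 that holds the pseudogene Gm15529. Gm15529 itself had at most 1.4 counts in any library, against 294.8, 425 and 292 counts for Hormad1 in knockout replicates 1 to 3. How reads of shared words were split between these genes was not tested. Further Hormad1 words lay at chr15:90955001-90960000 (190) and chr15:90960001-90965000 (70), with no annotated gene. Others lay at chr3:7445001-7450000 (50, a window that overlaps Pkia) and chr3:7450001-7455000 (57). For Sycp1, 13.57% of 3435 words occurred elsewhere, 465 of them beside Psg19 at chr7:19370001-19375000. For Syce2 the share was 0.29%, and for the other 6 genes it was 0. Reads from such stretches cannot be told apart from reads of Hormad1 or Sycp1. Syce1, Tex12, Sycp2, Sycp3, Hormad2 and Meioc had no such word in the coding transcripts searched. Forms outside that set were not searched, among them Sycp3-002 and Sycp3-003, with 29.4% and 60.1% of the heterozygous counts of Sycp3.

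Of the 18 nearest protein-coding genes, 15 were tested and 0 were called (edgeR, DESeq2 and voom alike, with 2 higher at an unadjusted p under 0.05 in edgeR, Lif and Ctss). Over all genes tested, 6.85% were called, so a count of 0 among 15 is near the background. Their median log2 fold change was 0.05.

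Other genes of the meiotic chromosome program were taken from lists by role. Together these lists named 49 genes, of which 43 were found and 36 tested, with 14 higher, 0 lower and 22 not passing, at a median log2 fold change of 0.20. Over all genes tested, 4.92% were called higher and 1.92% lower, and the counts per list below stand beside the same shares. Rec114 and Stra8 were under the filter level of 0.196 CPM in each heterozygous library. They thus entered the test through the knockout, and these counts are a description too. Rec114 overlaps Nptn on the opposite strand, and Smc1b, Hsf2bp, Tex11 and Shoc1 also overlap other annotated genes. At an unadjusted p under 0.05, edgeR had 1 lower gene, Ythdc2, which DESeq2 also called after adjustment. Of 7 other complex and axis genes, 6 were found and 3 tested, and these 3 were higher. These encode subunits of the meiotic cohesin that builds the axis: Stag3 was at 2.97 ± 0.29 CPM in controls and 14.2 ± 0.319 CPM in knockouts (SD, n = 3; log2 fold change 2.26 ± 0.16, SE; edgeR with Benjamini-Hochberg adjustment, adjusted p = 9.05e-06). Rec8, the kleisin of that cohesin, was already at 17.8 ± 1.49 CPM in the controls and reached 57.1 ± 6.49 CPM (log2 fold change 1.68 ± 0.11, SE; edgeR adjusted p = 6.77e-06). Smc1b, its SMC subunit, rose from 1.06 to 2.97 CPM (log2 fold change 1.49 ± 0.27, SE; edgeR adjusted p = 0.00727), a call lost with limma on unfiltered log2(TPM + 1) values (adjusted p = 0.0554). The other 3 were under the filter. Rad21l, another meiotic kleisin, had 0 counts in controls and 5, 4 and 1 in knockouts, while Syce3, a central element gene (9, 1 and 0 counts against 3, 7 and 5), and Sycp2l (7, 1 and 5 against 2, 4 and 3) overlapped between the groups.

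In the break formation list, 2 of 5 tested were higher. Rec114, an axis-bound partner of the break machinery, went from 0.0551 to 3.22 CPM (log2 fold change 5.65 ± 0.87, SE, and 10.31 without heterozygous replicate 2; edgeR with Benjamini-Hochberg adjustment, adjusted p = 0.00757). Iho1, whose product binds HORMAD1, went from 7.56 to 12.3 CPM (0.70 ± 0.17; edgeR adjusted p = 0.0365), a call lost on leaving out any single library (adjusted p from 0.0517 to 0.128). The catalytic gene Spo11, Mei4 and Prdm9 did not pass.

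In the strand exchange list, 3 of 9 tested were higher. Mnd1, which helps the recombinases find a partner chromosome, went from 16.2 ± 0.638 to 89.7 ± 5.26 CPM (SD, n = 3; log2 fold change 2.47 ± 0.09, SE; edgeR with Benjamini-Hochberg adjustment, adjusted p = 4.76e-08). Hsf2bp, a partner of BRCA2, went from 1.28 to 10.5 CPM (3.04 ± 0.28; edgeR adjusted p = 7.65e-05), and Tex15 from 2.63 to 20.6 CPM (2.97 ± 0.24; edgeR adjusted p = 5.09e-05).

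In the crossover list, 4 of 9 tested were higher. Ccnb1ip1, a ubiquitin ligase of crossover sites, went from 0.356 to 6.46 CPM (log2 fold change 4.16 ± 0.32, SE; edgeR with Benjamini-Hochberg adjustment, adjusted p = 1.82e-05) and Prr19 from 0.857 to 5.58 CPM (2.71 ± 0.29; edgeR adjusted p = 0.000275). Tex11, which joins synapsis to crossover formation, went from 0.485 to 12.2 CPM (4.68 ± 0.47, and 5.36 without heterozygous replicate 3; edgeR adjusted p = 0.000647). Shoc1 went from 0.602 to 1.58 CPM (1.38 ± 0.32; edgeR adjusted p = 0.0303), a call that did not hold without heterozygous replicate 2 or 3 or any single knockout library (adjusted p from 0.0505 to 0.116).

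In the telomere attachment list, 0 of 6 tested passed, also at an unadjusted p under 0.05 and with DESeq2 and voom. Over all genes tested, 6.85% were called in either direction, so 0 among the 6 of this list is near the background. Sun1 and Sun2, nuclear envelope proteins that somatic cells also make, were the most abundant, with log2 fold changes of 0.13 ± 0.11 and -0.27 ± 0.15 (SE). In the meiotic entry list, 2 of 4 tested were higher: Rbm46, an RNA-binding protein, from 1.12 to 3.40 CPM (1.60 ± 0.28; edgeR with Benjamini-Hochberg adjustment, adjusted p = 0.00688), and Stra8, the retinoic acid target that starts meiosis, from 0.0475 to 0.465 CPM (3.51 ± 0.75; edgeR adjusted p = 0.0187). Stra8 had a log2 fold change of 4.43 without heterozygous replicate 1, but did not pass without heterozygous replicate 2 (adjusted p = 0.0916) or 3 (0.0858) or knockout replicate 1 (0.0809) or 2 (0.0537).

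Relatives with roles in somatic cells were set beside the HORMA genes. Of 6 HORMA-domain proteins and HORMA remodellers, 0 passed in edgeR, also at an unadjusted p under 0.05, nor in DESeq2 or voom, and the median log2 fold change was -0.00. Over all genes tested, 6.85% were called in either direction, so a count of 0 among these 6 is near the background. Mad2l1, the spindle checkpoint protein, differed by -0.17 ± 0.08 and Mad2l2 by 0.07 ± 0.10 (log2, SE; edgeR with Benjamini-Hochberg adjustment, adjusted p = 0.256 and 0.695), and library totals called Mad2l1 lower. Of 11 genes for known repressors of germ cell promoters, Dnmt1 was the only one called in edgeR, and the list median was -0.13. DESeq2 also called Uhrf1, the partner that brings DNMT1 to replicated DNA, higher (log2 fold change 0.24, adjusted p = 0.0446), and library totals called Ehmt2 (-0.38) and Setdb1 (-0.31) lower in edgeR.

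**Figure D4:**
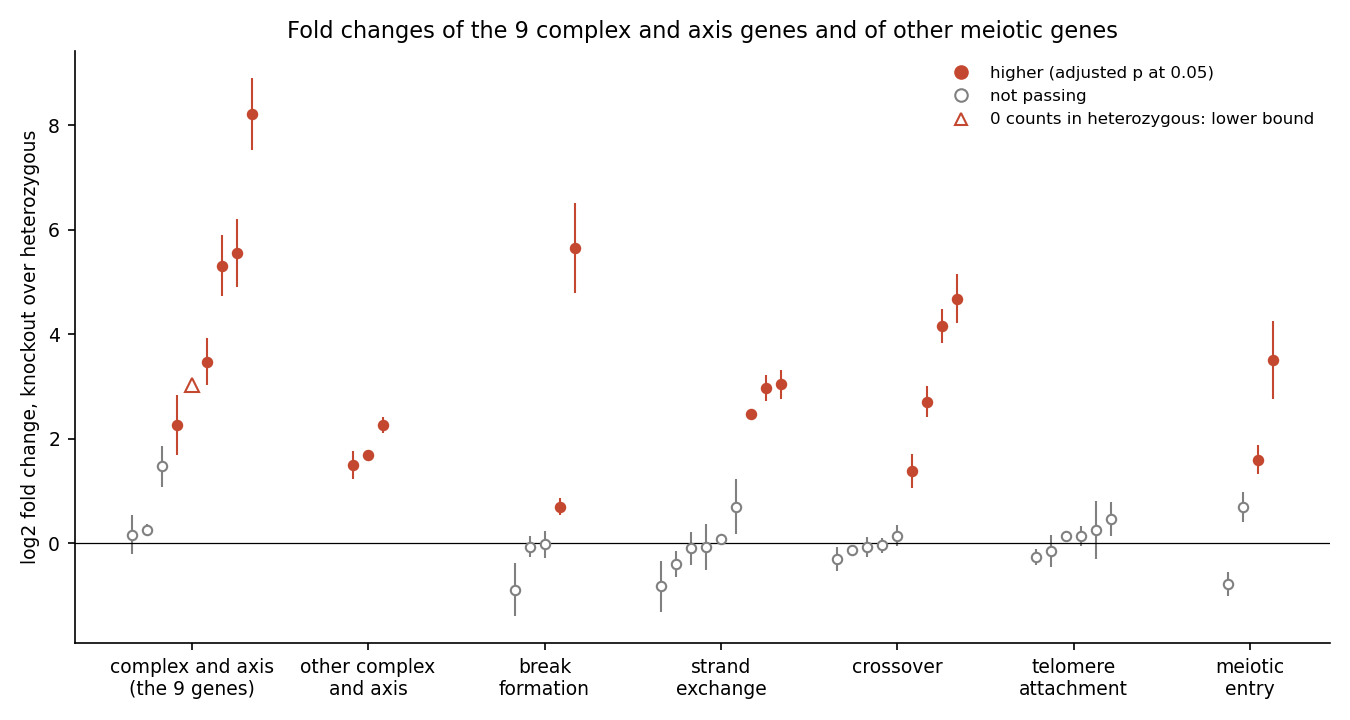
Log2 fold change (knockout over heterozygous, ± SE) of each tested gene of the 9 and of the other meiotic lists, filled red where the adjusted p passed 0.05, open grey where it did not, and an open triangle for Sycp1 at its lower bound. Genes called higher occur in each list but telomere attachment, with Syce1 plotted at 8.22. Over all genes tested, 4.92% were called higher, so 0 of 6 in the telomere attachment list is near the background.

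Markers of germ cells and of gonadal somatic cells were also measured. A list of germ cell markers summed to 8.35, 9.42 and 13.0 CPM in controls and 18.7, 13.8 and 10.4 CPM in knockouts, so the groups overlapped. Kit was the largest part of each sum, at 4.95, 5.47 and 9.32 CPM in controls and 11.3, 6.71 and 5.21 CPM in knockouts. Without Kit, the sum of each knockout library lay above that of each control, so the overlap rests on that gene. Genes of this list may also depend on promoter methylation, which was not measured. Of its 8 genes found, 5 were tested and 1 was higher, Dnd1, at 1.73, 1.57 and 1.28 CPM in controls against 3.97, 4.84 and 2.57 CPM in knockouts. Pou5f1 was at 0.63 to 1.06 CPM in the controls and 0.424 to 0.891 CPM in the knockout, and 3 further germ cell genes were under the filter. Of these, Sohlh1 had 0 counts in controls and 10, 10 and 4 in knockouts, so that it was higher in each knockout library. Dppa3 had 0, 0 and 1.8 counts against 23, 7 and 1, and Figla 0 against 6, 0 and 1, both highest in knockout replicate 1. Gonadal somatic markers summed to 11.1 to 12.6 CPM in controls and 8.03 to 12.7 CPM in knockouts, with Foxl2 at 0 in all 6 and 0 of 4 tested genes called (1 lower at an unadjusted p under 0.05, Nr5a1, in edgeR, and 0 called by DESeq2 or voom). Over all genes tested, 4.92% were called higher and 6.85% in either direction, so 0 of 4 gonadal genes is near the background. For 14.8% of all genes tested, each knockout library lay above each heterozygous one. The part of germ cells or gonadal cells in the results was not tested.

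The genes most like the 9 over the 6 libraries were found by Pearson correlation with the mean of their log2(CPM + 1) values, among 13475 protein-coding genes outside the lists. They were Gm5699 (r = 0.99817), 3632451O06Rik (0.99816) and Gm11758 (0.99802). Gm5699 was at 0 in the controls and 5.67, 5.43 and 3.52 CPM in knockout replicates 1 to 3, and 3632451O06Rik at 4.3, 3.52 and 3.74 CPM against 13.4, 13.7 and 10.5 CPM. Because the libraries lie in 2 groups of 3, such values mostly restate the group difference, and 103 genes exceeded 0.99.

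By count, the promoters of the 9 genes held more CpG than the median of promoters in general. In windows of 300 bases (250 before to 50 after a RefSeq start, GRCm38.p6), Sycp2 held 10 CpG, Syce1 14, Sycp3 15, Hormad2 16, Sycp1 21, Hormad1 24, Tex12 26 and Meioc 28, and the 2 windows of Syce2 held 19 and 33. The median was 7 over all 32851 promoters of that length, 18 over promoters of the genes tested and 11 over promoters of genes called higher. The genes that rose thus lie on both sides of the median of the genes tested, as do those that did not pass. The ratio of observed CpG to that expected from base composition was 0.363 in Sycp2, under the median of 0.384 over all promoters. In the other genes it ran from 0.534 (Hormad2) to 0.962 (second window of Syce2), around the median of 0.702 over genes tested.

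**Figure D5:**
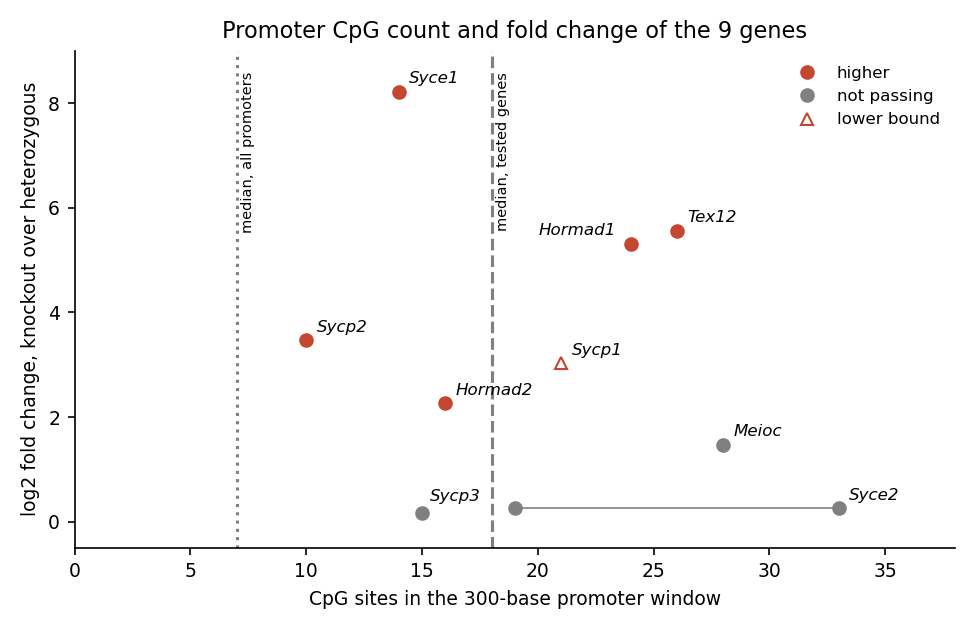
Number of CpG in the 300-base promoter window (x axis) against the log2 fold change, knockout over heterozygous (y axis), for the 9 genes, with medians of all promoters (7) and of tested genes (18) as vertical lines and the 2 windows of Syce2 joined. Genes called higher (red) span 10 to 26 CpG, and Syce1, at a log2 fold change of 8.22, has 14.

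Motifs were searched in the same windows on both strands, chosen after the sequences had been seen. GCGGGAA, the core bound by E2F-type factors, occurred in Tex12, Hormad1, Sycp3, Meioc and the second window of Syce2, that is in 5 of the 9 genes, and in 4.6% of all promoters, 7.45% of those of genes tested and 9.52% of those of genes called higher. In the sequences printed above, with -1 the base before the start, it begins at -147 in Sycp3, -145 in Tex12, -95 in Hormad1 and -34 in Syce2. CACGTG, the E-box core, occurred in Hormad1, Sycp1, Tex12, Sycp3 and the second window of Syce2, and in 7.15%, 9.31% and 10.4% of the same sets. Matches of the 2 motifs can share at most 1 base, and matches were found both in genes that rose and in genes that did not pass.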

How the data were processed

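RNA of sorted cap mesenchyme was sequenced in 6 libraries, 3 labelled heterozygous and 3 labelled knockout. The authors quantified transcripts with kallisto, per the submitters' processing notes, whose version is not given in the sources used here. The deposited tables hold, per transcript, an estimated count, a TPM value and an effective length in bases, per the file headers. Of 96626 transcripts in each table, 74519 were paired by identifier with a gene of the GENCODE vM1 annotation (NCBIM37) and 22107 were not. Both measures were added up over the transcripts of a gene, and the count sums were rounded.

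Counts were tested with edgeR 4.0.16 in R 4.3.3 (quasi-likelihood test, TMM scaling, default expression filter, robust dispersions, no covariate), adjusted by Benjamini-Hochberg over 16989 genes, with a threshold of 0.05. The biological coefficient of variation was 0.21. Alternatives were DESeq2 1.42.0, limma 3.58.1 (voom, or log2(TPM + 1) and log2(TPM + 0.1)), other scalings and filters, a length offset, a replicate block, sex (male above 50 CPM of Y-linked transcripts) and leaving out each library. CPM were computed on TMM library sizes, and 3 counts correspond to 0.051 to 0.0662 CPM, for counting error only.

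Named beside the 9 genes were, from each list, the called genes with the 4 smallest p-values or, with none called, the 2 most abundant, called neighbours, and the 3 most similar genes. Marker genes, transcripts and other genes named for contrast were chosen after their values were seen. The 9 genes, the lists and the rules were chosen with earlier results of these data known. Six6os1, Ankrd31, Top6bl, Brme1, Rnf212b and Meiosin could not be matched to a gene and were not used here. Scripts were tested on simulated data.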

Additional observations from a re-analysis of the deposited data

How the results depend on the processing

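With 3 libraries a group and few control counts, leaving out 1 library moved the fold changes of Syce1, Tex12, Hormad1, Rec114, Tex11 and Stra8 by over 1.5 times, and ended the calls of Hormad2, Iho1, Shoc1 and Stra8 in some or all cases. Syce1, Tex12 and Hormad1 passed under all 19 alternatives, and Syce2 and Sycp3 under none. Of the 9 genes, 3 were higher in each of the limma fits on TPM (log2(TPM + 1) and log2(TPM + 0.1) with a mean of at least 1 TPM, where 5 were tested, and log2(TPM + 1) with no filter), 5 to 7 when leaving out 1 library, and 5 to 7 otherwise. Sycp3 reversed to -0.04, -0.09 and -0.04 in those fits, to -0.0026 with sex as a covariate and to -0.31 without knockout replicate 1, in a range of -0.31 to 0.38 leaving out 1 library (edgeR or limma adjusted p from 0.663 to 0.998). Over all genes, higher calls were 1315 with DESeq2, 457, 454 and 548 in the limma fits and 526 to 916 leaving out 1 library. Lower calls were 1883 with library totals, 624 with DESeq2, 761 and 756 in the filtered limma fits, 162 with sex as a covariate and 116 to 272 leaving out 1 library, with the fewest in both directions without knockout replicate 2. In the other meiotic lists, 1 gene was lower with library totals and DESeq2 (Ythdc2) and 1 in each limma fit on TPM (Msh5), and 11 to 13 were higher leaving out 1 library. In the unfiltered limma fit, the added 1 exceeds the mean knockout TPM of Sycp1 (0.153) and Sycp2 (0.772), which limits how far they can differ. Their log2 fold changes there were 0.20 and 0.68, against at least 3.03 and 3.47 in edgeR. Beyond this, fewer libraries and, in the filtered limma fits, fewer genes, the cause was not tested.

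Replicate numbers did not pair the samples: deviations of same-numbered libraries correlated at -0.068, -0.031 and -0.045. With a replicate block, 5 of the 9 genes, 707 higher and 265 lower genes and 12 genes of the other meiotic lists were called, and Hormad2 was not (adjusted p = 0.105, edgeR).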
